A study of Mus musculus with 6 samples.

Results

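The circadian clock genes described here are 10 core genes of the mammalian clock, Arntl, Clock, Per1, Per2, Per3, Cry1, Cry2, Nr1d1, Nr1d2 and Dbp, measured in the quadriceps of exercised and sedentary AR97Q mice. They were chosen by name, through the transcript accessions of the array probes, and all 10 were among the 25005 genes and transcripts tested. AR97Q mice carry a transgene of human androgen receptor with an expanded CAG repeat on a C57BL/6J background and are a model of spinal and bulbar muscular atrophy, and all mice of both groups carried it. The exercise group (3 male mice) ran on a forced wheel at 5 m/min from 5 weeks of age for 4 weeks, the sedentary group (3 male mice) did not, and all were 9 weeks old at sampling, the exercised mice on the day after their last bout. RNA of 1 mouse was hybridized to each 1-colour Agilent array. No wild-type mice are among the arrays, so the comparison is of exercise within the transgenic line. The hour of the day at which each mouse was sampled is not given in the sources used here.

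The clock is a feedback loop of transcription that runs in nearly every cell. ARNTL (also called BMAL1) and CLOCK pair on E-box sequences and switch on the Per and Cry genes, whose proteins return to the nucleus and block the pair. The same pair drives Nr1d1 and Nr1d2, which encode REV-ERB receptors that repress Arntl at sequences they share with the ROR receptors, and Dbp, an output factor that acts at D-box sequences. In skeletal muscle, as in other tissues, these transcripts rise and fall over the day, with Arntl near its highest when Dbp and the Per genes are near their lowest.

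The start regions of some of these genes hold sequences that the loop uses. RefSeq promoter windows (GRCm38.p6), from 250 bases before to 50 after a transcription start, were found for 9 of the 10 genes, in 13 windows, and Per2 had no entry. The windows were searched on both strands for the E-box CACGTG, its variant CACGTT, the D-box TTATGTAA or TTACGTAA, the ROR and REV-ERB element TAGGTCA or TGGGTCA, and the cAMP response element TGACGTCA. The 6 member windows that hold any of these are shown, since they hold the letters searched for. Capitals mark the matches, in the orientation of the gene.
Arntl, chr7:113207261-113207560, plus strand: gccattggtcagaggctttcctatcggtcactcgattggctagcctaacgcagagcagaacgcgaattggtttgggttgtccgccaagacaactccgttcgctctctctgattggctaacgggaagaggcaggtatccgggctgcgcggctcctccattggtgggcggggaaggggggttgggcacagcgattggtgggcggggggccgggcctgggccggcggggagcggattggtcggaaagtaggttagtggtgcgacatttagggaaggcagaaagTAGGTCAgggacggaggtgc
Per1, chr11:69098699-69098998, plus strand: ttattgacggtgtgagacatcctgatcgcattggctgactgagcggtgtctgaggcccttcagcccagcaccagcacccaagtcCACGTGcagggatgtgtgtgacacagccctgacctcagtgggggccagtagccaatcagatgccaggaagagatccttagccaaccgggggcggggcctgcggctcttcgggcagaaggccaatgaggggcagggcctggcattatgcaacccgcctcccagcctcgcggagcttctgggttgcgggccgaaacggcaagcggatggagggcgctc
Per3, chr4:151044616-151044915, minus strand: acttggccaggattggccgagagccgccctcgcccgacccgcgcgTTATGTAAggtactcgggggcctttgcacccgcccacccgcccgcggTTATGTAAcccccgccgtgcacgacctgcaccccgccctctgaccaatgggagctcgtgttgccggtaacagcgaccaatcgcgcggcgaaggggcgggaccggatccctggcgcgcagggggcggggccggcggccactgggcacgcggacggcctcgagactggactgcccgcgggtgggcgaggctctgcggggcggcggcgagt
Cry1, chr10:85185005-85185304, minus strand: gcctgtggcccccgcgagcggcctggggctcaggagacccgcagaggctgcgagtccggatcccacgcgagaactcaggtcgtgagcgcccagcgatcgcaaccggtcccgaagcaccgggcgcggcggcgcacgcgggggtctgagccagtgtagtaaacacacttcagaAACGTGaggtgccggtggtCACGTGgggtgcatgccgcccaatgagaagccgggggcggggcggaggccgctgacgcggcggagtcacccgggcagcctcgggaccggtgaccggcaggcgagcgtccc
Cry2, chr2:92434020-92434319, minus strand: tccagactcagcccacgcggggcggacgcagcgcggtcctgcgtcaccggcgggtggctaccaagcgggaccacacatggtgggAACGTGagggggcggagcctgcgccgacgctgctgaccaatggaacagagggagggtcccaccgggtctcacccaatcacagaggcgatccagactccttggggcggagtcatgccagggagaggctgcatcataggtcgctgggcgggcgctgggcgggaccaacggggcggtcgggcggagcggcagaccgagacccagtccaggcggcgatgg
Nr1d1, chr11:98775328-98775627, minus strand: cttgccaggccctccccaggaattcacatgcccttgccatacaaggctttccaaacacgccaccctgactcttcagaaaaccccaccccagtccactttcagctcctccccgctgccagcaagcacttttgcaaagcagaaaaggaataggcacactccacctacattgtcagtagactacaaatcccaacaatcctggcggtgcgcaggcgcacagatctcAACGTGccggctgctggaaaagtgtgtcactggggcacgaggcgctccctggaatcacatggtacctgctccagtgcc

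The E-box lay 166 bases before the start of Per1 and 60 before that of Cry1. Its variant, read on the other strand as AACGTG, lay 166 bases before the start of Cry2, 79 before that of Cry1 and 28 before that of Nr1d1. Per3 had the D-box at 205 and at 158 bases before its start, and Arntl had the ROR and REV-ERB element 30 bases after its start. Among all 32851 promoter windows of the table, 7.15% held the E-box, 4.68% its variant, 1.06% a D-box, 6.45% a ROR and REV-ERB element and 1.79% a cAMP response element. The windows of Clock, Nr1d2 and Dbp held none of the sequences searched for. A match describes the letters only, and these arrays do not measure binding.

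Levels are log2 intensities of a probe relative to the 75th percentile of its array, so 0 is the 75th percentile and 1 unit is a doubling. The probe used for each of the 10 genes was well above background on all 6 arrays. Between 54.6 and 59.9% of all probes of an array were, no spot was saturated, and any pair of arrays correlated at 0.979 to 0.993 over all genes. The number of arrays limits the precision. All arrays came from 1 slide, on which the 3 exercise arrays and sedentary array 1 lay in the same strip and sedentary arrays 2 and 3 in the other. Defining skeletal muscle markers (Ckm, Acta1, Mb, Des and the fast myosins among them) were well expressed on every array.

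Of the 10 clock genes, Nr1d1 was the only one that differed between the groups by the study's threshold, which asks for an FDR under 0.05 together with a log2 difference of 1 or more in size, and it was higher with exercise. That is 1 of 10, where 2.78% of all genes and transcripts tested passed it, and with the FDR alone it was again 1 of 10, where 17.6% of all passed. Nr1d1 was also the only one of the 10 whose exercise arrays all lay on 1 side of the sedentary arrays, which held for 43.2% of all genes and transcripts tested. The other 9 did not pass, and their 95% intervals all included 0. The median log2 difference of the 10 genes was -0.02, beside 0.03 for all genes tested, with 5 genes above 0 and 5 below. The scale sets that split, which was 2 above and 8 below with no scaling between arrays, where the median of all genes was -0.45, and 6 and 4 with the array median subtracted. In bulk muscle, fewer cells of a type and less RNA per cell cannot be told apart.

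**Figure D1:**
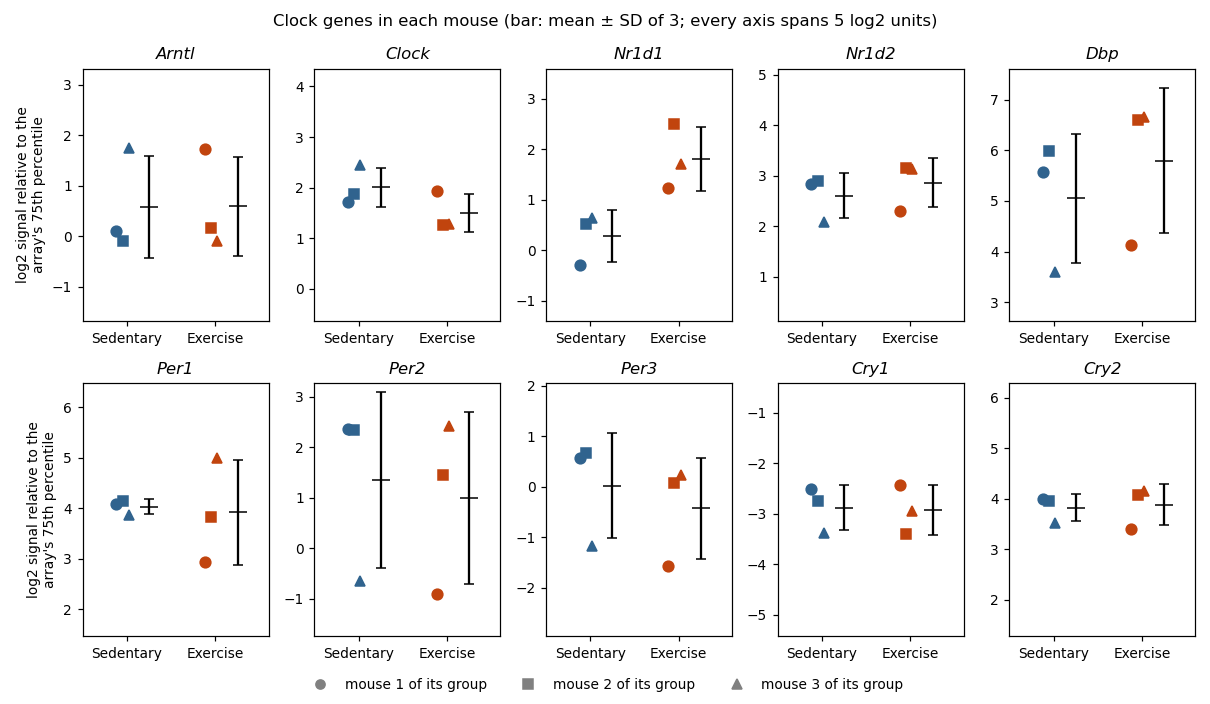
Level of each of the 10 clock genes in each mouse, as log2 signal relative to the 75th percentile of the array (y axis, spanning 5 log2 units in every panel), for sedentary (blue) and exercise (orange) mice. Symbols mark the mouse number within its group and bars the mean ± SD of 3 mice. The groups are apart for Nr1d1 alone, and exercise mouse 1 (circle) and sedentary mouse 3 (triangle) lie at the same end for 7 of the 10 genes.

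Arntl encodes the partner of CLOCK in the activating pair. Its level was 1.72, 0.16 and -0.10 in exercise mice 1, 2 and 3, and 0.11, -0.10 and 1.74 in sedentary mice 1, 2 and 3. In each group 1 mouse was thus high and the other two low, at nearly the same levels in both groups. The group means were 0.59 ± 0.98 (SD, n = 3) and 0.58 ± 1.01 (SD, n = 3), and the difference was 0.01 (standard error 0.66, 95% interval -1.59 to 1.6, limma adjusted p = 0.995).

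Clock was at 1.92, 1.27 and 1.28 with exercise and at 1.71, 1.87 and 2.44 without. The groups overlapped, since exercise mouse 1 lay above sedentary mice 1 and 2. The difference was -0.52 (standard error 0.26, 95% interval -1.15 to 0.11, limma adjusted p = 0.203). On 2 scales that leave the overall brightness of the arrays uncorrected, no scaling and scaling on spike-in probes, Clock passed the FDR as lower, at -0.99 and -1.07, where the median of all genes was itself -0.45 and -0.52.

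Per1, Per2 and Per3 encode the PERIOD repressors, of which Per1 and Per2 also respond acutely to hormones and cell signalling. Per1 was at 2.94, 3.83 and 5.01 in the exercise mice and at 4.08, 4.15 and 3.87 in the sedentary mice. The spread was unequal, with an SD of 1.04 in the exercise and 0.147 in the sedentary group, and the exercise mice reached both above and below all sedentary mice. The difference was -0.11 (standard error 0.49, 95% interval -1.30 to 1.08, limma adjusted p = 0.891).

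Per2 was at -0.89, 1.45 and 2.43 with exercise and at 2.37, 2.34 and -0.65 without. This was the widest range of the 10 genes, 9.97-fold from the lowest to the highest array, and it lay within the groups, since each held 1 mouse far below its other two. The difference of -0.36 had a standard error of 1.13 and a 95% interval from -3.11 to 2.38 (limma adjusted p = 0.839), so these arrays could not resolve even a large difference in Per2.

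Per3 was at -1.57, 0.07 and 0.24 with exercise and at 0.57, 0.67 and -1.17 without. The lowest mouse of each group was the same as for Per2. The difference was -0.45 (standard error 0.67, 95% interval -2.08 to 1.18, limma adjusted p = 0.658).

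Cry1 and Cry2 encode the CRYPTOCHROME repressors that act with the PERIOD proteins. Cry1 was at -2.43, -3.41 and -2.94 with exercise and at -2.51, -2.76 and -3.38 without, and the groups covered the same range. Its difference was -0.05 (standard error 0.32, 95% interval -0.82 to 0.72, limma adjusted p = 0.929). Cry2, which held the narrowest range of the 10 genes, was at 3.41, 4.07 and 4.16 with exercise and at 4.0, 3.96 and 3.51 without. The lowest mouse of each group was again exercise mouse 1 and sedentary mouse 3. The difference in Cry2 was 0.06 (standard error 0.24, 95% interval -0.52 to 0.63, limma adjusted p = 0.886), and its sign turned under several scalings.

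Nr1d1 encodes the nuclear receptor REV-ERBα, a repressor of Arntl. Its level was 1.23, 2.49 and 1.71 in exercise mice 1, 2 and 3, and -0.30, 0.51 and 0.64 in sedentary mice 1, 2 and 3. Every exercise mouse lay above every sedentary mouse. The mean rose from 0.28 ± 0.51 (SD, n = 3) in the sedentary to 1.81 ± 0.64 (SD, n = 3) in the exercise group, a log2 difference of 1.53 (standard error 0.39, 95% interval 0.59 to 2.46), or 2.88-fold (limma adjusted p = 0.0442). The exact permutation test of 3 mice against 3 gave p = 0.1 (two-sided), the smallest it can give.

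The direction of the Nr1d1 difference was the same in all 22 alternatives, but its call was not. Since Nr1d1 had a single probe and its groups did not overlap, only another scaling or background correction could have turned the direction. The difference ran from 0.98 with scaling on spike-in probes to 2.11 with the slide's strip taken as a block, and it passed the FDR in 7 of the 22. The call was lost without any single mouse (1.19 to 1.82, with limma adjusted p from 0.0750 to 0.115) and, among others, with quantile normalization (1.5, adjusted p = 0.0529) and in the authors' deposited table (1.37, adjusted p = 0.0535). With scaling on spike-in probes the groups overlapped. The value with the strip as a block rests on the strip that held both groups. There the mean of the 3 exercise arrays lay 2.11 above the single sedentary array. That array, of sedentary mouse 1, had the lowest Nr1d1 level of all, -0.30.

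**Figure D2:**
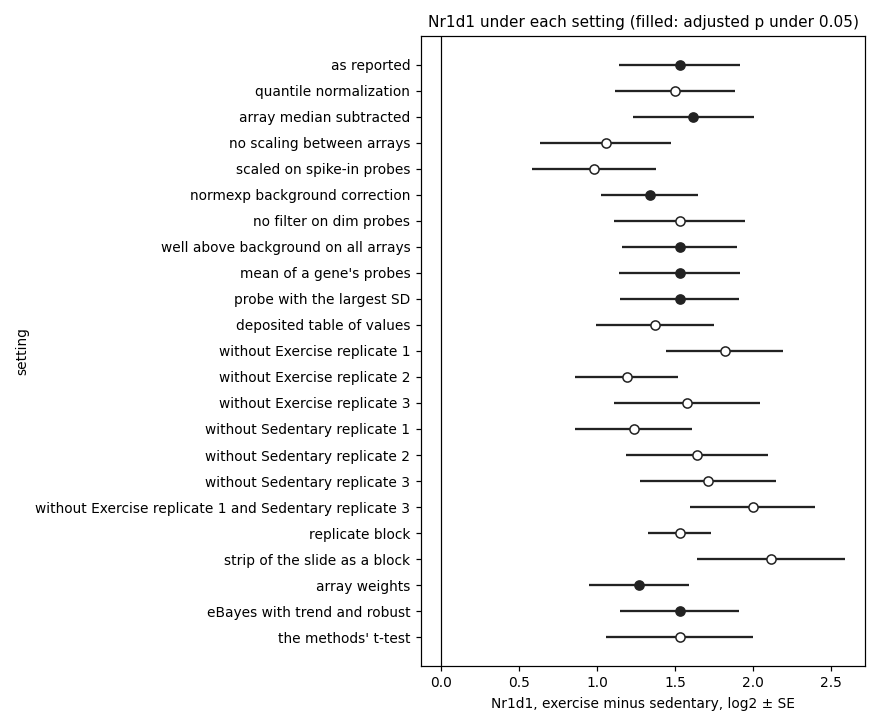
Log2 difference of Nr1d1 between exercise and sedentary mice (x axis, point with ± 1 standard error) under the reported setting and each alternative (y axis). Filled points have an adjusted p under 0.05. All points lie between 0.98 and 2.11.

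Other measures moved with the Nr1d1 difference. Thra, which encodes a thyroid hormone receptor and overlaps the end of Nr1d1 on the opposite strand, was at 4.02, 4.16 and 4.13 with exercise and at 3.45, 3.40 and 3.60 without. Its difference was 0.62 (standard error 0.09, limma adjusted p = 0.0234), with no overlap of the groups, which held for 43.2% of all genes and transcripts tested. The labels do not say whether labelling and probes of the array keep the strands apart, and the part of Thra in the Nr1d1 signal was not tested. The 8 skeletal muscle markers all lay higher with exercise, 5 of them past the FDR, though 5 of 8 did so with no scaling and 6 of 8 with quantile normalization, and their summed level was 4104 to 4691 times the array's 75th percentile in exercise and 2112 to 2959 in sedentary mice. The 4 smooth muscle markers all lay lower, 2 of them past the FDR (3 of 4 lay lower with normexp), with summed levels of 17.6 to 21.4 and 25 to 39.2. The 5 Schwann cell markers lay lower, 1 past the FDR, with summed levels of 38.7 to 46.3 and 44.0 to 58.3 that overlapped. The summed levels of adipocyte, macrophage, endothelial, fibroblast and red blood cell markers overlapped between the groups as well. Of the 6 adipocyte markers 1 lay higher, past the FDR, and 5 lower. Their sum ran from 228 in exercise mouse 1 to 573 in exercise mouse 3. The part of any of these markers or cells in the Nr1d1 difference was not tested.

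Nr1d2 encodes REV-ERBβ, which shares the role of REV-ERBα. It was at 2.30, 3.16 and 3.14 with exercise and at 2.83, 2.90 and 2.09 without, and the groups overlapped through exercise mouse 1. The difference was 0.26 (standard error 0.32, 95% interval -0.51 to 1.03, limma adjusted p = 0.585).

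Dbp encodes the D-box binding protein, an output factor with a wide daily swing in many tissues. It was at 4.14, 6.61 and 6.65 with exercise and at 5.57, 5.99 and 3.59 without. From the lowest to the highest array its signal spanned 8.36-fold. Exercise mice 2 and 3 lay above all sedentary mice, and exercise mouse 1 below sedentary mice 1 and 2. The difference was 0.75 (standard error 0.90, 95% interval -1.43 to 2.93, limma adjusted p = 0.575), and with each mouse left out in turn it ran from 0.02 to 1.58.

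**Figure D3:**
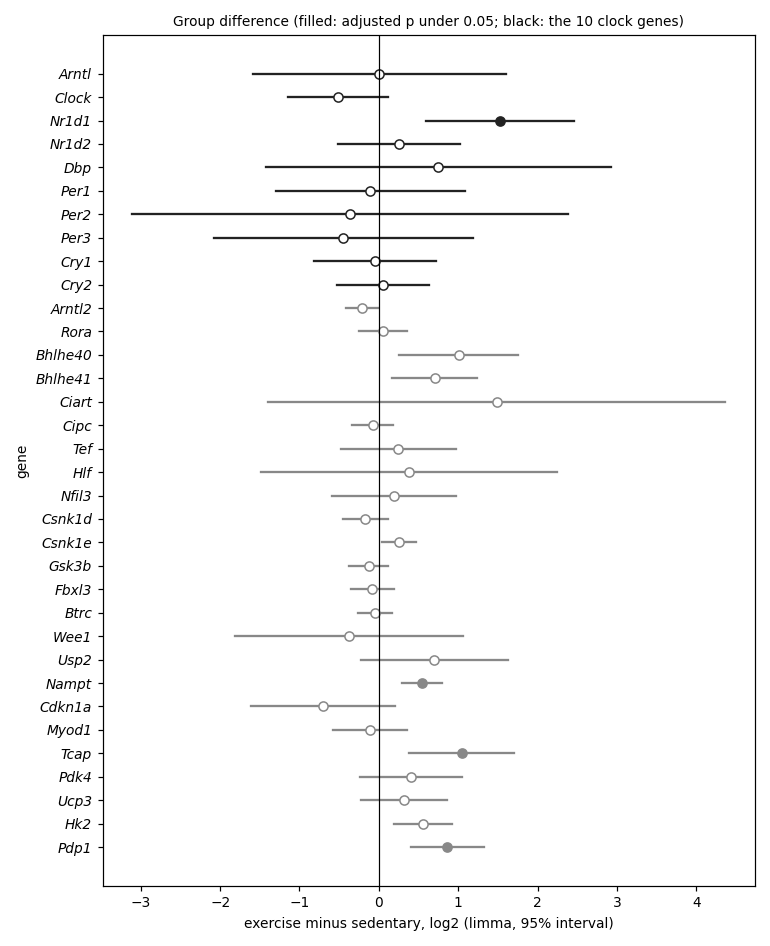
Log2 difference between exercise and sedentary mice (x axis, point with the 95% interval of limma) for the 10 clock genes (black) and the 24 tested genes of the other clock lists (grey). Filled points have an adjusted p under 0.05, which holds for Nr1d1 and for Nampt, Tcap and Pdp1. The intervals of Per2, Dbp, Per3 and Arntl are the widest of the 10.

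The clock genes followed individual mice more than the groups. Exercise mouse 1 and sedentary mouse 3 had the 2 lowest arrays for Per2, Per3, Cry2, Nr1d2 and Dbp, and the 2 highest for Arntl and Clock. These same mice were thus at an end for 7 of the 10 genes, where 8.15% of all genes and transcripts tested had them as the 2 lowest or the 2 highest. The members at the low end are repressors and outputs that the activating pair drives, and those at the high end are the activating pair itself. Per1, Cry1 and Nr1d1 had other orders, with exercise mice 1 and 2 the lowest for Per1, exercise mouse 1 the highest and sedentary mouse 3 among the lowest for Cry1, and Nr1d1 ordered by group. These mice were singled out from the same values, so the count is a description and carries no test.

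Exercise mouse 1 and sedentary mouse 3 lay in different strips of the slide. The summed skeletal muscle markers were 4262 in exercise mouse 1, within the range of its group, and 2112 in sedentary mouse 3, the lowest of its group. The 75th percentile of signal was 257, 256 and 251 in exercise mice 1, 2 and 3, and 310, 371 and 384 in sedentary mice 1, 2 and 3. Exercise mouse 1 and sedentary mouse 3 were thus the highest of their own groups. Every sedentary array was brighter than every exercise array, so brightness went with the group. Whether these or the hour of sampling bear on the pattern was not tested.

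**Figure D4:**
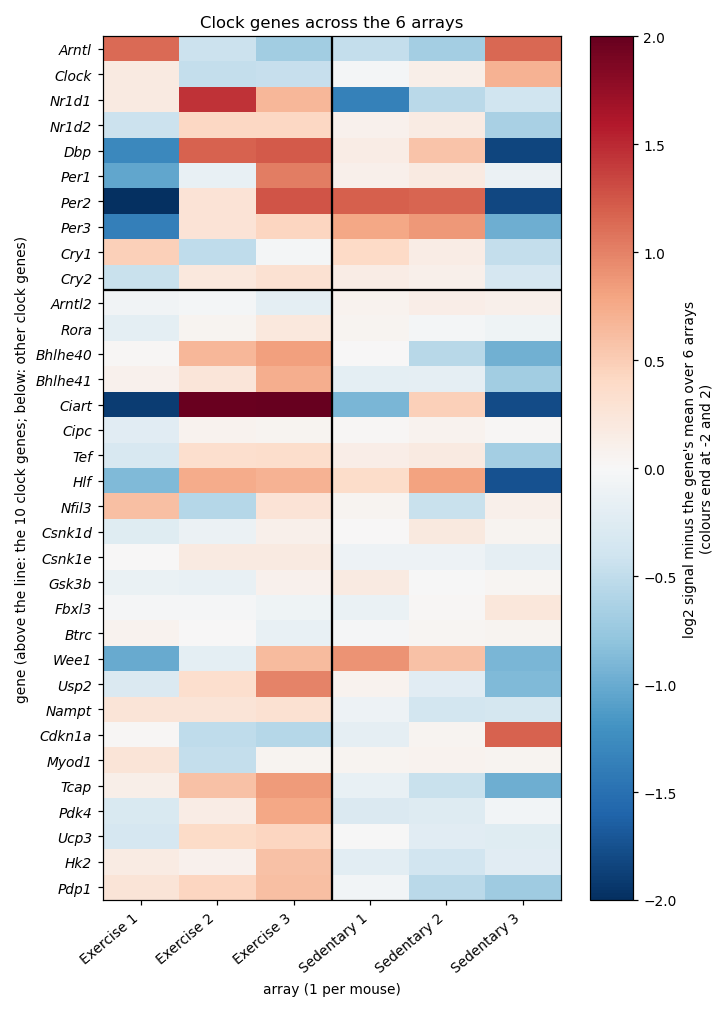
Log2 signal of the 10 clock genes (above the line) and 24 other clock and output genes (below it) in each of the 6 arrays, minus the mean of the gene over the arrays. Red is above and blue below the mean. Exercise 1 and Sedentary 3 are blue for Dbp, Per2, Per3 and Hlf and red for Arntl, and Nr1d1 is red in exercise and blue in sedentary arrays.

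The spread between mice of a group was wide for these genes. The within-group SD, pooled over both groups, had a median of 0.658 over the 10 genes on the log2 scale, beside 0.163 over all genes tested. All 10 lay above the 80th percentile of all genes, and 5 above the 95th, which was 0.584. Those were Per2 at 1.72, Dbp at 1.36, Per3 at 1.02, Arntl at 1.00 and Per1 at 0.740. Nr1d1 lay just under that line at 0.577, followed by Nr1d2 at 0.470, Cry1 at 0.469, Clock at 0.381 and Cry2 at 0.346. For 8 of the 10 genes the within-group SD exceeded the difference between the groups, and Nr1d1 and Clock were the exceptions. The share of all genes for which this holds was not taken, so that count describes the 10 genes only.

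**Figure D5:**
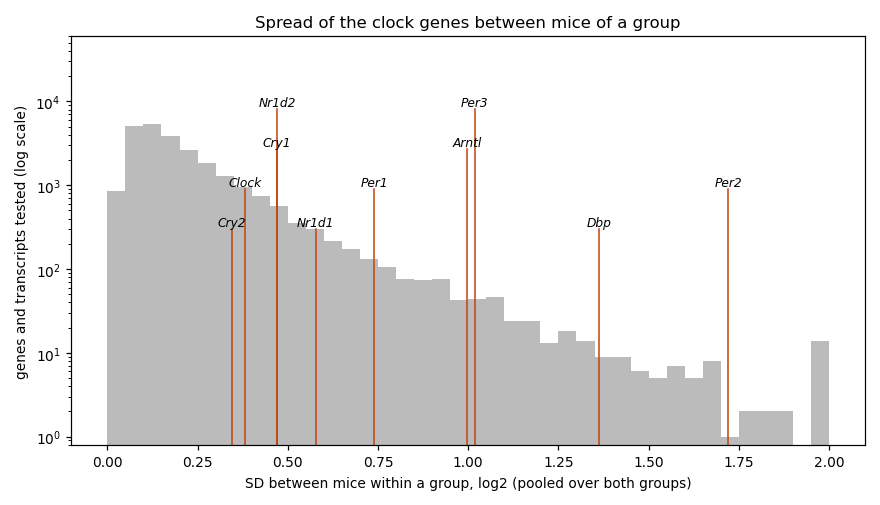
Number of genes and transcripts tested (y axis, log scale) by the SD between mice within a group (x axis, log2, pooled over both groups), with the 10 clock genes marked by lines. The bar at the right end, from 1.95, also holds all larger values. Per2 at 1.72 and Dbp at 1.36 lie far to the right of the median of 0.163.

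When exercise mouse 1 and sedentary mouse 3 were left out, a choice made after the values were seen, the spread narrowed by construction, since they were picked as the extremes of these same genes. The values are a description. The difference in Dbp was 0.85 (standard error 0.18) against 0.75 with all mice, in Arntl 0.02 (0.16) against 0.01, in Clock -0.51 (0.13) against -0.52, in Per3 -0.47 (0.13) against -0.45, and in Nr1d1 2.00 (0.40) against 1.53. Cry1 moved from -0.05 to -0.54, and Per1 turned from -0.11 to 0.30. The remaining groups did not overlap for 7 of the 10 genes, where this held for 58.1% of all genes and transcripts tested. With 2 mice in each group none of the 10 genes passed the FDR by limma (adjusted p from 0.183 to 0.948), and neither did any other gene of the array, while 5291 of them had an unadjusted p under 0.05.

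The array held 19 probes for the 10 genes, with 1 probe each for Per1, Cry2 and Nr1d1, so the Nr1d1 difference rests on a single probe. The other 7 genes had 9 further probes, 6 of them well above background on every array. Exercise mouse 1 and sedentary mouse 3 were the 2 lowest or the 2 highest on 7 of the 9 further probes, and on 4 of the 6 bright ones. Probes of a gene share the RNA and are not replicates. A second Dbp probe gave 3.71, 6.51 and 6.24 with exercise and 5.19, 5.62 and 3.38 without, close to the first in every mouse, and a difference of 0.76. For Nr1d2 the second probe gave a difference of 0.22 and for Cry1 -0.06, near the values of the probes used.

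The probes of Arntl did not agree in every mouse. The second probe read -0.53, -2.24 and -2.43 with exercise and -1.77, -2.10 and -0.62 without, with the same high mice as the first and a difference of -0.24. The third read -1.15, -1.86 and -1.43 with exercise and -1.38, 0.16 and -1.17 without, and was highest in sedentary mouse 2, with a difference of -0.68. The second bright Clock probe gave a difference of -0.21, with the same high mice, at 0.42 and 0.75. The dimmer probes of Clock (1 array above background), Per2 (3 arrays) and Per3 (4 arrays) had differences of 0.11, 0.01 and -0.28. Those of Clock and Per2 were opposite in sign to the probes used.

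The named genes nearest in pattern to Dbp and Arntl were sought among 15747 by the root mean square difference of mean-centred log2 values over the 6 arrays. Nearest to Dbp was Hlf, a D-box factor of the same family, at 0.356, followed by Gnal at 0.598, 0610040F04Rik at 0.613, Tspan4 at 0.634 and Per3 at 0.672. Hlf was at -1.29, 0.34 and 0.28 with exercise and at -0.04, 0.40 and -2.16 without, with the same low mice as Dbp. Nearest to Arntl were Gal3st4 at 0.220, Cyb5r2 at 0.30, Tac4 at 0.343, Sqle at 0.349 and Nrk at 0.393. Of these, Sqle, which encodes squalene epoxidase of cholesterol synthesis, was at 0.62, -0.88 and -0.80 with exercise and at -0.44, -0.50 and 0.33 without. The probes of 0610040F04Rik, Tac4 and Nrk were well above background on 3, 4 and 5 of the 6 arrays, so their distances rest in part on values near the background. Likeness over 6 arrays is a description only.

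Beyond the 10 genes, 27 further genes of the clock or its outputs were listed by role, of which 24 were tested. Past the FDR 3 were higher and 0 lower, and 1 passed the study's threshold. All 3 were output genes and not parts of the loop. Over all genes and transcripts tested, 17.6% passed the FDR in either direction and 2.78% the study's threshold. Their median difference was 0.25, beside 0.03 for all genes tested, with 15 above 0 and 9 below, or 8 and 16 with no scaling between arrays. Exercise mouse 1 and sedentary mouse 3 were the 2 lowest for 8 of the 24 and the 2 highest for 1. The 3 that were not tested were Npas2 and the ligase gene Fbxl21, whose probes were well above background on no array, and Rorb, which had no matched probe. Of the 4 activators and ROR receptors, 2 were tested and none passed the FDR. Rora, which encodes RORα, an activator at the elements where REV-ERB represses, was at 4.24, 4.48 and 4.65 with exercise and at 4.48, 4.38 and 4.35 without, and the groups overlapped. Its difference was 0.05 (standard error 0.12, limma adjusted p = 0.794), and its sign turned with quantile normalization, no scaling, scaling on spike-in probes, normexp and the deposited table. Arntl2, a paralogue of Arntl, differed by -0.21 and did not pass (adjusted p = 0.124).

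None of the 4 other repressors of the activating pair passed the FDR. Bhlhe40 and Bhlhe41 encode the E-box repressors DEC1 and DEC2, and differed by 1.01 (standard error 0.31, limma adjusted p = 0.0693) and 0.70 (standard error 0.22, adjusted p = 0.0729). In both cases the groups did not overlap, which held for 43.2% of all genes and transcripts tested. Ciart, which encodes the repressor CHRONO, was at -4.33, -0.47 and -0.28 with exercise and at -3.35, -1.97 and -4.23 without, a difference of 1.49 (standard error 1.19, adjusted p = 0.399). Its probe was well above background on 5 of the 6 arrays and not in exercise mouse 1, where the value is only a bound, and with normexp the difference was 0.96. Cipc, another repressor of the pair, differed by -0.08 (adjusted p = 0.620).

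Of the other D-box factors, none of Tef, Hlf and the D-box repressor Nfil3 passed, with differences of 0.25, 0.38 and 0.20. None of the 5 tested kinases and ligases that modify PERIOD and CRYPTOCHROME proteins passed either, and they spanned -0.17 for Csnk1d to 0.25 for Csnk1e. This depended on the probe, since with the most variable probe of a gene Csnk1d was at 0.39 (limma adjusted p = 0.0396) and Csnk1e at 0.71 (adjusted p = 0.0344), and with the mean of its probes Csnk1e was at 0.43 (adjusted p = 0.0392). The most variable probe was picked by its SD over the arrays of both groups together, which favours probes that differ between the groups. Of 10 output genes, 3 were higher past the FDR and 0 lower, where 17.6% of all genes and transcripts passed in either direction. Nampt, the rate-limiting enzyme of NAD salvage, rose by 0.55 (standard error 0.10, limma adjusted p = 0.0262, and -0.0035 with scaling on spike-in probes), Pdp1, a phosphatase that activates pyruvate dehydrogenase, by 0.86 (standard error 0.19, adjusted p = 0.0330), and Tcap, the sarcomere protein telethonin, by 1.04 (standard error 0.27, adjusted p = 0.0477). Cdkn1a, which encodes the cell cycle inhibitor p21, had the lowest difference of the list at -0.70 (standard error 0.37, adjusted p = 0.224).

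Genes that respond to cues able to reset a clock were listed beside them. Of 10 glucocorticoid-induced genes none passed the FDR by limma, and 1, Sgk1, had an unadjusted p under 0.05. They spanned -1.17 for Ddit4 to 0.54 for Sgk1. Their median within-group SD was 0.378, beside 0.163 for all genes tested. For 1 of the 10 the 2 lowest arrays were those of exercise mouse 1 and sedentary mouse 3, and for 0 the 2 highest. Of 7 temperature-responsive genes none passed, and none had an unadjusted p under 0.05, with a span from -0.71 for Hsp90aa1 to 0.38 for Dnajb1. Their median within-group SD was 0.596, and the same mice were the 2 lowest or 2 highest for 0 of the 7. Of 11 immediate early genes, transcription factors and others that cells induce within minutes of a stimulus, 7 were higher past the study's threshold and none lower, where 2.78% of all genes and transcripts passed it in either direction, and their median difference was 1.24. They were Fosb at 2.06, Fos at 1.99, Egr1 at 1.47, Nr4a1 at 1.40, Ier2 at 1.25, Junb at 1.24 and Dusp1 at 1.06, while Atf3 was at -0.55 and did not pass. For 8 of the 11 the groups did not overlap, where this held for 43.2% of all genes and transcripts tested, and exercise mouse 1 and sedentary mouse 3 were the 2 lowest or 2 highest arrays for 0 of the 11. Past the FDR were 4 of the 11 with quantile normalization, where 3228 of all 25005 genes and transcripts passed. With scaling on spike-in probes 3 of the 11 passed, where 11796 of all did. Without any single mouse other than sedentary mouse 1, none of the other clock and output genes or immediate early genes passed the FDR, as in nearly the whole table.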

How the data were processed

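Quadriceps RNA of 6 male AR97Q mice was measured on 1-colour Agilent arrays, 1 per mouse. Images were quantified by the authors in Feature Extraction 12.1.0.3, and they deposited, for each array, the processed signal of every spot, an intensity on a linear scale that is already corrected for background. A deposited table of values holds the processed signal of each array times 1 factor (1.33 to 1.88).

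From the deposited intensities, control spots and outlier-flagged spots were left out, spots of a probe were averaged, and log2 values were set relative to the 75th percentile of each array. A probe was kept if at least 3 arrays had it well above background (32726 of 56605), and the probe with the highest mean stood for a gene. Probes were named through transcript accessions matched to the RefSeq table of GRCm38.p6, which matched 34566 of them. The comparison of the groups used limma (version 3.58.1, under R 4.3.3) with lmFit, eBayes and no covariates, two-sided p-values and Benjamini-Hochberg adjustment over all 25005 genes and transcripts, and was checked on simulated arrays. A gene was called when its FDR was under 0.05 and its log2 difference 1 or more in size, as in the study's methods. Samples labelled as replicates were taken as separate mice, as the series' design states.

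One listed gene was left out and is not reported here. The 10 genes and all lists were chosen with earlier results of these data known. Named are all 10 genes with all their probes, each listed gene past the FDR, the largest difference of each list in each direction, and the 5 genes nearest in pattern to Dbp and to Arntl. Thra, Bhlhe40, Bhlhe41 and the other genes named with values were added after their values were seen. Alternatives were quantile normalization, array median, no scaling, scaling on 8 spike-in probes, normexp background correction (offset 50), other filters on dim probes, other rules for several probes of a gene, the deposited table, each array left out, the replicate number and the strip of the slide as blocks, the methods' t-test, array weights, a robust eBayes fit with a trend, and other thresholds. The methods' t-test is the unpaired test that the study names for animal experiments, while its arrays were analysed with the web tool iDEP. Leaving out exercise mouse 1 and sedentary mouse 3 together was added after the data were seen.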

Additional observations from a re-analysis of the deposited data

How the results depend on the processing

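Of the 10 clock genes, 1 (Nr1d1) was called in the reported setting, and 0 were called with quantile normalization, no scaling between arrays, no filter on dim probes, the authors' deposited table, the replicate block, the slide's strip as a block or the methods' t-test. With scaling on spike-in probes the 1 call was Clock, lower by limma (-1.07, adjusted p = 0.0238), and not Nr1d1 (0.98, adjusted p = 0.0654). Without 1 array at a time the count was 0 on each occasion, and the whole table then held at most 1 call past the FDR, except without sedentary mouse 1, where it held 5531. The count was 0 without exercise mouse 1 and sedentary mouse 3 as well. Nr1d1 was higher under all 22 alternatives, though only the scalings, the deposited table and normexp could have turned it. Clock and Dbp also kept their direction under all of them, while the direction of the other 7 genes turned under at least 1, and none of those differences passed the FDR in the reported setting. Exercise and sedentary arrays did not overlap for 1 of the 10 genes, where this held for 43.2% of all genes and transcripts tested. It was 2 with no scaling and 2 with scaling on spike-in probes. Without 1 array the count ran from 1 to 5. Without both mice it was 7, where the share of all was 58.1%. For the other settings the share of all was not taken, so their counts are a description only. The cause of these changes was not tested beyond the smaller number of arrays and the shift of all genes that a scaling brings.

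Several other counts moved. The 1 call among the other clock and output genes became 0 with quantile normalization, no scaling, normexp, no filter on dim probes, the deposited table, the most variable probe of a gene, the replicate block, the strip as a block and the methods' t-test, and ran from 0 to 3 without 1 array. The 3 of them past the FDR became 7 with no scaling, 9 with scaling on spike-in probes, 6 with normexp, 1 in the deposited table, 5 with array weights, 5 with a robust eBayes fit with a trend, 0 with the replicate block, 0 with the strip as a block and 0 with the methods' t-test, and ran from 0 to 4 without 1 array. The 7 immediate early genes past the FDR became 4 with quantile normalization, 3 with scaling on spike-in probes, and 0 with the replicate block, with the strip as a block and with the methods' t-test, and ran from 0 to 7 without 1 array. Without both mice these counts were 0. The whole table of 25005 held 4406 past the FDR in the reported setting and 3228 with quantile normalization. It held 11897 with no scaling, 11796 with scaling on spike-in probes and 8149 with normexp. The deposited table gave 4373, array weights 8756 and a robust eBayes fit with a trend 5711. With the replicate block it was 0, with the strip as a block 3 and with the methods' t-test 644.

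Directions turned as follows. Quantile normalization gave Arntl -0.0072, Cry1 0.064, Cry2 -0.11 and Rora -0.15. With no scaling, where the median of all genes was -0.45, Arntl was at -0.47, Cry2 at -0.42, Nr1d2 at -0.21, Rora at -0.42, Csnk1e at -0.22, Dnajb1 at -0.096, Hlf at -0.095 and Nfil3 at -0.28. With scaling on spike-in probes, where it was -0.52, Arntl was at -0.54, Cry2 at -0.49, Nr1d2 at -0.29, Rora at -0.50, Csnk1e at -0.29, Dnajb1 at -0.17, Hlf at -0.17, Nampt at -0.0035, Nfil3 at -0.35 and Sgk1 at -0.0084. In the deposited table, where it was -0.13, Arntl was at -0.15, Cry2 at -0.10 and Rora at -0.11. Subtracting the array median gave Cry1 0.041 and Cipc 0.0096, and normexp gave Cry1 0.15 and Rora -0.027. The mean of a gene's probes gave Arntl -0.30 and Csnk1d 0.19, and the most variable probe gave Csnk1d 0.39. The strip as a block gave Cry2 -0.12, Rora -0.026, Atf3 0.047 and Hlf -0.18, and array weights gave Cry2 -0.069 and Hlf -0.29. Without 1 array, Arntl ran from -0.56 to 0.58, Per1 from -0.65 to 0.38, Per2 from -1.36 to 0.58, Per3 from -1.04 to 0.13, Cry1 from -0.30 to 0.19, Cry2 from -0.10 to 0.29, Nr1d2 from -0.00022 to 0.54, Rora from -0.047 to 0.16, Cipc from -0.13 to 0.016, Dnajb1 from -0.36 to 1.01, Hlf from -0.40 to 0.91 and Nfil3 from -0.053 to 0.53. Without both mice Per1 was at 0.30 and Cipc at 0.0078.

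The replicate numbers did not pair the mice. Deviations of same-numbered mice from their group means correlated at 0.0154, 0.0846 and 0.0361, and with the replicate block the Nr1d1 difference of 1.53 had an adjusted p of 0.0606 and the whole table held 0 calls past the FDR.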
